A study of Homo sapiens with 9 samples.

Results

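RAG1, RAG2 and DNTT, the lymphocyte genes that cut and extend antigen receptor DNA, were followed in RNA-seq libraries of a leukemia cell line in which a MEF2C enhancer had been targeted. The 3 genes were taken by their GENCODE release 44 symbols and make up 3 of the 62700 genes, and 16 of the 252835 transcripts, in the tables. RAG1 was chosen because it was higher in the knockout libraries, so every comparison of the 3 genes with the control is given as a description, without a test.

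The cells were HAL-01, a line grown from acute lymphoblastic leukemia of the B lineage, whose t(17;19) translocation makes the fusion transcription factor TCF3::HLF. All 9 libraries came from HAL-01 cells stably expressing Cas9GFP and collected on day 13, and they differed in the single guide RNA (sgRNA) received. The guides sgRNA_96 and sgRNA_97 aim at the HLF motif of the MEF2C enhancer bound by TCF3::HLF and together form the enhancer knockout (KO) group of 6 libraries, while SCR1 is a scrambled guide with 3 libraries. Each guide has 3 replicates, numbered 1, 3 and 4. Guides were delivered by lentivirus together with a red fluorescent reporter, so cells of 1 library can carry different edits or none, and the share of edited cells was not analysed here. Nothing in the labels says whether replicates were separate infections or cultures, so p-values measure the spread between these libraries, which may be technical. The RNA is from bulk cells, in which fewer cells expressing a gene and less RNA per cell cannot be told apart.

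RAG1 and RAG2 form the recombinase that cuts DNA at recombination signal sequences and starts V(D)J recombination, by which precursor B and T cells assemble immunoglobulin and T cell receptor genes. RAG1 carries the catalytic site, and RAG2 is the regulatory partner that reads a histone mark of active chromatin and is degraded as cells enter S phase. DNTT encodes terminal deoxynucleotidyl transferase (TdT), which adds nucleotides without a template to the cut ends before they are joined by the general end joining machinery, and is a diagnostic marker of lymphoblastic leukemia.

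Totals ran from 15212462 to 29777361 estimated counts per library, and 14436 genes had enough counts to be tested. All 7 of 7 B lineage markers were above 1 TPM, a transcript abundance corrected for length, with summed levels of 1260 to 1330 in SCR1 and 1240 to 1400 in the KO libraries. Of 9 T lineage markers none was above 1 TPM, and their summed level was at most 0.143 TPM in SCR1 and 0.464 in the KO libraries. All 5 erythroid markers were listed at 0. Of 8 myeloid markers MPO and CSF1R were above 1 TPM, with summed levels of 13.2 to 16.4 in SCR1 and 12.3 to 16.9 in KO, and of 5 stromal markers only PDGFRB was, with 5.11 to 6.79 and 4.5 to 6.39. Within the myeloid sum MPO rose from a mean of 1.41 to 2.87 TPM (log2 fold change 1.08, edgeR adjusted p 0.000894), and CSF1R was at 13.3 and 10.4 TPM (-0.21, 0.124 in edgeR). The part of these markers in the results below was not tested. MEF2C, the gene of the targeted enhancer (ENSG00000081189.17, minus strand of chromosome 5, 88717117 to 88904257), was measured at 560, 559 and 536 CPM (counts relative to a library size scaled for composition) in SCR1, at 495, 498 and 510.1 with sgRNA_96 and at 553, 505 and 495 with sgRNA_97. The log2 difference of -0.12 had an adjusted p of 0.062 by the quasi-likelihood test of edgeR with Benjamini-Hochberg adjustment, which is above the threshold of 0.05. DESeq2 on the same 9 libraries gave -0.12 with an adjusted p of 0.0269, which passes. Without sgRNA_97 replicate 1, the KO library that lay within the control range, edgeR gave an adjusted p of 0.0143.

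The DNA just upstream of RAG2 and DNTT is shown because their start sites differ in make-up. The windows are the 250 bases before the first base of each gene's most abundant transcript, read from hg38 in the direction of transcription. Capitals mark each match to the E-box letters CANNTG, the core that E proteins such as TCF3 recognise.
RAG2-201, chr11:36598237-36598486, minus strand: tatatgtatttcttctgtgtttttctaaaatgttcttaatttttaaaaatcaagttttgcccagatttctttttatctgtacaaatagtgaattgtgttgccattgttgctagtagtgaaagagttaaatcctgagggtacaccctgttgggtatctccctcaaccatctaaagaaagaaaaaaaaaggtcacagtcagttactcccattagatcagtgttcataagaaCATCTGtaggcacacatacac
DNTT-201, chr10:96304184-96304433, plus strand: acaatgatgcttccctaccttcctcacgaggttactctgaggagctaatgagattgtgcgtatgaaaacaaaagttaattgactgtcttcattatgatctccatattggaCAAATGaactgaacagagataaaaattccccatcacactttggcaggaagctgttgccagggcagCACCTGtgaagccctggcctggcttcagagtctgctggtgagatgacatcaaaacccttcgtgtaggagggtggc

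The RAG2 window held 1 E-box match, CATCTG starting 21 bases before the transcript, and the DNTT window 2, CAAATG at 140 bases and CACCTG at 75. Among 35116 RefSeq promoter windows of the same length (GRCh38.p14), 61.8% held at least 1 match and 28.3% held 2 or more, with a mean of 1.05. The narrower form CAGNTG, read on both strands and always also a CANNTG match, occurred 1 time in each of the 2 windows and in 42.5% of all windows. Neither TTACNTAA, the site of HLF and its relatives, nor the forkhead site GTAAACA was found in either window, on either strand, against 1.98 and 2.98% of all windows. The letters alone do not show that a factor binds there. The RAG2 window was poor in G and C at 34.0% and the DNTT window held 46.4%, beside a median of 58.0% over the RefSeq windows.

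RAG1 (ENSG00000166349.11, plus strand of chromosome 11, 36510372 to 36593156 on hg38) stood far above the control with both guides. It was measured at 256, 293 and 275.5 CPM in SCR1 replicates 1, 3 and 4. With sgRNA_96 it was at 442, 515 and 503 CPM, and with sgRNA_97 at 515, 528 and 503 CPM. All 6 KO libraries lay above every control, the lowest at 1.51 times the highest control. Such a separation between KO and SCR1 was seen for 20.3% of all genes tested, with KO the higher in 10.1% and the lower in 10.2%, and RAG1 was picked for it. The mean was 275 ± 18.7 CPM (SD, n = 3) in SCR1 and 501 ± 30.3 CPM (SD, n = 6) in KO. The fitted log2 fold change was 0.87 (SE 0.0569), which is 1.82-fold, and 2.02% of the 14436 genes had a larger one. Taken by guide, it was 0.83 (SE 0.063) for sgRNA_96 and 0.91 (SE 0.0631) for sgRNA_97, 2 values that share the SCR1 libraries.

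RAG2 (ENSG00000175097.9, minus strand of chromosome 11, 36575574 to 36598279) lay closer to its control. Its level was 88.4, 86.2 and 90.4 CPM in SCR1. It was 101, 103 and 105 CPM with sgRNA_96, and 112, 107 and 101 CPM with sgRNA_97. All 6 KO libraries lay above every control, as in 10.1% of all genes tested. The gap was narrow, the lowest KO library being 1.12 times the highest control. The means were 88.3 ± 2.08 CPM (SD, n = 3) and 105.1 ± 4.31 CPM (SD, n = 6). The log2 fold change was 0.25 (SE 0.0467), or 1.19-fold, with 0.22 (SE 0.0545) for sgRNA_96 and 0.28 (SE 0.0546) for sgRNA_97. Of all genes tested, 16.9% had a larger one.

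DNTT (ENSG00000107447.8, plus strand of chromosome 10, 96304409 to 96338564) was the most abundant of the 3 genes by far. It was measured at 2041, 2045 and 2131 CPM in SCR1. With sgRNA_96 its level was 2279, 2478 and 2508 CPM, and with sgRNA_97 it was 2560, 2557 and 2456 CPM. Every KO library again lay above every control, by a factor of 1.07 at the closest, and 10.1% of all genes tested showed such a separation. The mean was 2072 ± 51.2 CPM (SD, n = 3) in SCR1 and 2473 ± 104 CPM (SD, n = 6) in KO. The log2 fold change was 0.26 (SE 0.0395), or 1.19-fold, with 0.22 (SE 0.045) for sgRNA_96 and 0.28 (SE 0.045) for sgRNA_97, and 16.5% of all genes had a larger one. This gene alone took 0.202 to 0.211% of all counts in the SCR1 libraries and 0.227 to 0.256% in the KO libraries.

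**Figure D1:**
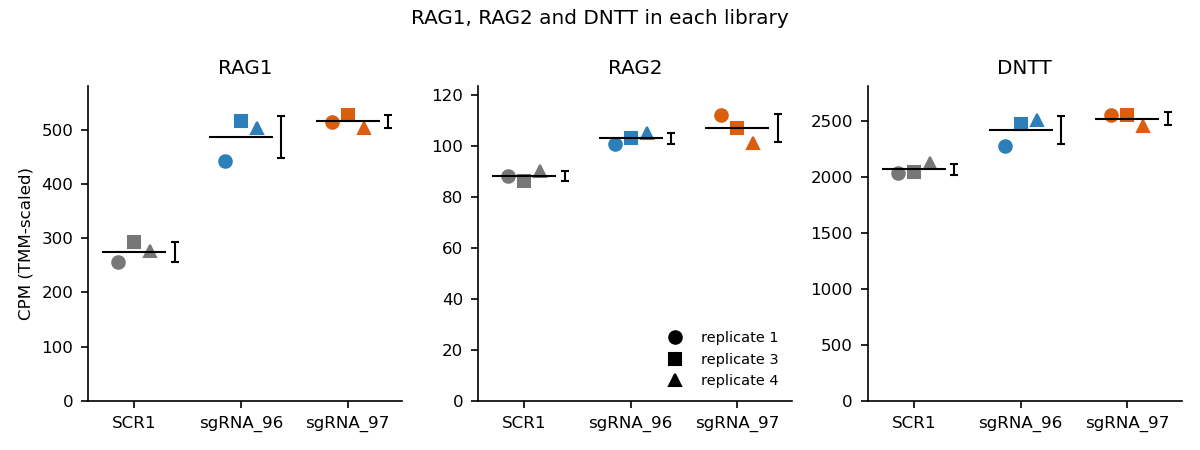
CPM of RAG1, RAG2 and DNTT in each of the 9 libraries (y axes, from 0), by guide (x axis). Symbols give the replicate number, lines the mean of each guide and bars the SD (n = 3). RAG1 sits at 256 to 293 CPM in SCR1 and at 442 to 528 CPM with either guide, while the steps for RAG2 and DNTT are small beside their levels.

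Set on their own control means, RAG1 stood apart from the other pair in every KO library. RAG1 ranged from 1.61 times the SCR1 mean in sgRNA_96 replicate 1 to 1.92 times in sgRNA_97 replicate 3. RAG2 ranged from 1.14 to 1.27 times and DNTT from 1.1 to 1.24 times. The library sgRNA_96 replicate 1 was the lowest KO library in CPM for all 3 genes. Without it the log2 fold change of RAG1 was 0.9.

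**Figure D2:**
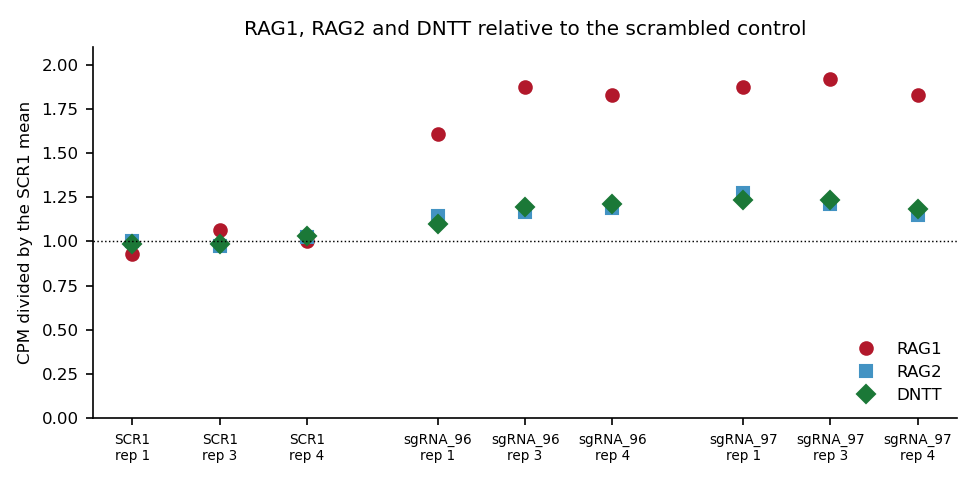
CPM of RAG1, RAG2 and DNTT in each library divided by the mean of the 3 SCR1 libraries (y axis, dotted line at 1), with libraries on the x axis. In the KO libraries RAG1 lies between 1.61 and 1.92, and RAG2 and DNTT lie together between 1.1 and 1.27.

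Levels of different genes can be compared per length, in TPM. In SCR1 DNTT was at 1506 ± 34.5 TPM, RAG2 at 71.7 ± 4.13 TPM and RAG1 at 55.1 ± 4.52 TPM (SD, n = 3). In KO the values were 1812 ± 88.7, 84.02 ± 4.56 and 101 ± 6.55 TPM (SD, n = 6). Among 20046 protein-coding genes DNTT was 109th from the top in SCR1 and 105th in KO, RAG2 went from rank 1679 to 1337, and RAG1 from rank 2275 to 1071. The TPM ratio of RAG1 to RAG2 was 0.768 ± 0.0245 in SCR1, with 0.75 to 0.796 in single libraries, and 1.2 ± 0.0853 in KO, with 1.1 to 1.32. The order of the 2 RAG genes in SCR1 depends on the transcripts counted. With only the transcripts that have a coding sequence, an alternative chosen after the data were seen, the ratio was 1.0 ± 0.0949 in SCR1, where single libraries lay on both sides of equality (0.929 to 1.11), and 1.54 ± 0.0545 in KO. The TPM ratio of DNTT to RAG1 was 27.4 ± 1.81 in SCR1 and 18.0 ± 0.473 in KO. That of DNTT to RAG2 was 21.0 ± 0.82 in SCR1 and 21.6 ± 1.38 in KO, and single libraries of the groups overlapped.

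The difference between the guides was not used to choose the genes and was tested. RAG1 was 0.08 higher on the log2 scale with sgRNA_97 than with sgRNA_96 (SE 0.0624, 95% interval -0.05 to 0.21), with an edgeR adjusted p of 1.0 over all genes (unadjusted 0.209). In fold terms the interval runs from 0.965 to 1.16. RAG2 differed by 0.05 (SE 0.0546, interval -0.06 to 0.17), with an edgeR adjusted p of 1.0 (unadjusted 0.351). For DNTT the difference was 0.06 (SE 0.045, interval -0.04 to 0.16), with an edgeR adjusted p of 1.0 (unadjusted 0.203). None of the 3 passed the threshold, and the intervals leave room for differences of up to 1.16-fold for RAG1, 1.12-fold for RAG2 and 1.11-fold for DNTT. Over all genes 3 of 14436 (0.0208%) were called between the guides, with 503 at an unadjusted p under 0.05.

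The transcripts behind each gene level were read next, since the 2 RAG genes have several annotated starts. RAG1 has 6 annotated transcripts, and RAG1-201 (ENST00000299440.6), which starts at position 36568007, held 99.8% of the RAG1 TPM on average. Its coding sequence of 3129 bases, 1043 codons, lies in 1 exon of 2. RAG1-204, RAG1-205 and RAG1-206 carry the same coding sequence from starts far upstream, and they were listed at 0 in all 9 libraries. RAG1-202 reached 3.0 counts at most and RAG1-203 4.9. The RAG1 level therefore rests on 1 transcript, at 54.9 ± 4.73 TPM (SD, n = 3) in SCR1 and 101 ± 6.55 TPM (SD, n = 6) in KO.

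RAG2 was spread over 8 annotated transcripts, 6 of which held at least 1% of its TPM. RAG2-201 (ENST00000311485.8) held 44.6%, RAG2-205 27.7%, RAG2-208 10.4%, RAG2-204 9.6%, RAG2-207 5.04% and RAG2-206 2.17%. RAG2-201, RAG2-205, RAG2-207 and the rare RAG2-203 differ outside the coding sequence and share the same 1581 coding bases, 527 codons in 1 exon. RAG2-204, RAG2-206 and RAG2-208 are short models without a defined coding sequence. RAG2-201 was at 30.4 ± 0.767 TPM (SD, n = 3) in SCR1 and 38.1 ± 4 TPM (SD, n = 6) in KO, and its 6 KO values, from 33.4 to 44.6 TPM, all lay above the 3 controls, from 29.9 to 31.2, as did 4.25% of the 41977 transcripts with a mean of at least 1 TPM. RAG2-205 was at 20.9 ± 3.35 TPM and 22.8 ± 5.65 TPM, and its groups overlapped. The share of RAG2-201 in single libraries ran from 39.7 to 46.5% in SCR1 and from 37.9 to 56.2% in KO, so the division among RAG2 transcripts varied more between replicates than between groups.

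**Figure D3:**
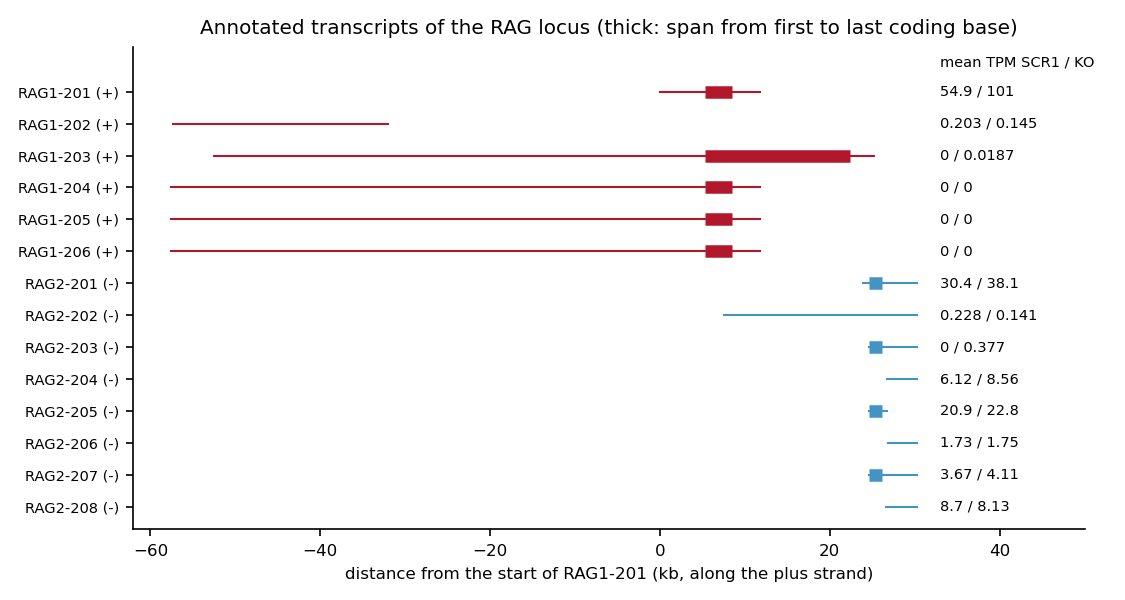
Annotated transcripts of RAG1 (red, plus strand) and RAG2 (blue, minus strand) on chromosome 11, drawn to scale by distance from the start of RAG1-201 in kb (x axis), with thick bars from the first to the last coding base. Mean TPM in SCR1 and KO stands at the right of each model. RAG1-201 carries the RAG1 signal and the far upstream models RAG1-204 to RAG1-206 are at 0.

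DNTT has 2 annotated transcripts, and both were found in every library. DNTT-201 (ENST00000371174.5) held 91.3% of the TPM and DNTT-202 (ENST00000630152.1) 8.71%. They use the same 11 coding exons except that exon 10 begins 3 bases later in DNTT-202, so that the coding sequences have 509 and 508 codons. The join of exons 9 and 10 is shown because these 3 bases are the only coding difference between the forms. Capitals mark the bases present in DNTT-201 only, and the last line gives the genome at the exon 10 start, where the annotated acceptor AG is repeated 3 bases on.
DNTT-201, joined exons: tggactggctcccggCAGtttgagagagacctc
DNTT-202, joined exons: tggactggctcccggtttgagagagacctc
genome, chr10:96335879-96335902, plus strand: tctcctatccagCAGtttgagaga

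The shorter DNTT form took 7.9, 8.42 and 9.11% of DNTT TPM in SCR1 replicates 1, 3 and 4. It took 9.7, 8.3 and 7.87% with sgRNA_96 and 9.35, 8.42 and 9.3% with sgRNA_97. The groups overlapped, at 8.47 ± 0.608% (SD, n = 3) in SCR1 and 8.82 ± 0.723% (SD, n = 6) in KO. The split rests on reads that cross this join or the transcript ends, as Salmon assigned them.

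**Figure D4:**
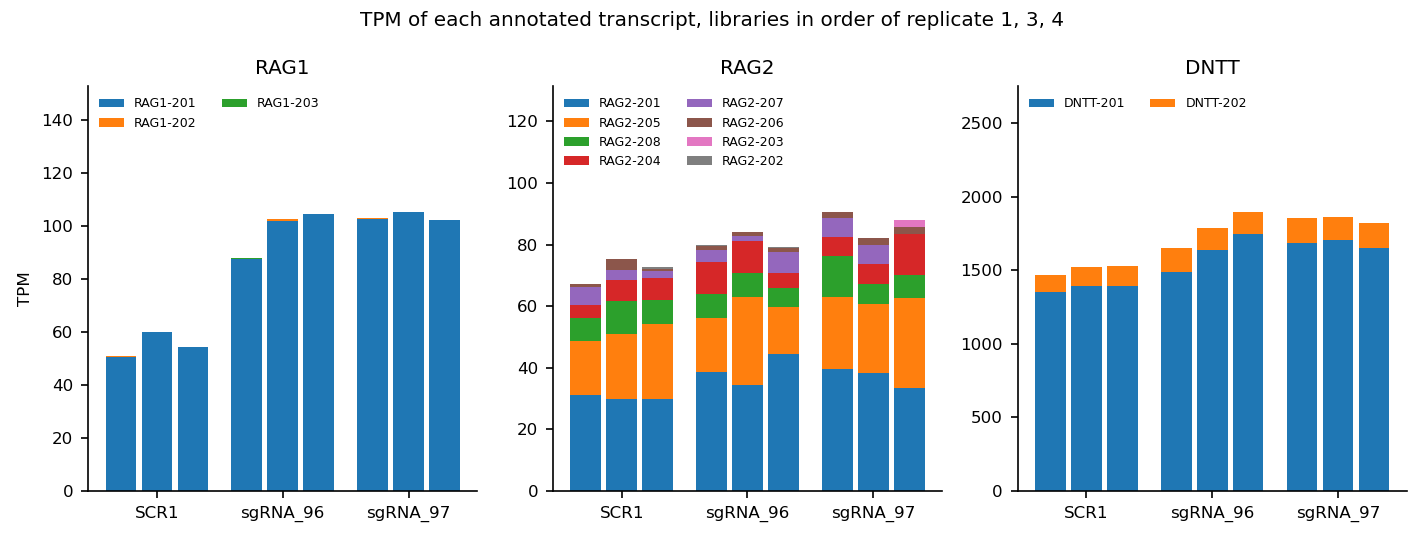
TPM of each annotated transcript of RAG1, RAG2 and DNTT (stacked colours, y axes from 0) in each library, grouped by guide with replicates in the order 1, 3, 4. RAG1 is 1 colour, RAG1-201, RAG2 is divided among several models with shares that differ between replicates, and DNTT is DNTT-201 with a band of DNTT-202 of 7.87 to 9.7%.

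The RAG genes face each other and their models overlap. RAG1-201 shares 398 of its 6588 exonic bases (6.04%) with RAG2 models on the other strand. The only RAG2 model that reaches it is RAG2-202, listed at 4.0 counts at most in any library. RAG2-201 shares 190 of 2388 (7.96%) with RAG1 models, of which only RAG1-203 reaches it, listed at 4.9 counts at most. RAG1-201 and RAG2-201 do not overlap each other. RAG2 models also share 372 bases with IFTAP on the opposite strand, none of them in RAG2-201. Whether strand was used in the counting is not given in the sources used here, so reads in these stretches cannot be assigned to 1 gene with certainty.

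To see the rest of the pathway, lists of genes named for their part in recombination were compared between KO and SCR1 in the fit over all genes. Of 14436 genes tested, 2984 (20.7%) passed the edgeR threshold, 1458 higher (10.1%) and 1526 lower (10.6%) in KO, and the median log2 fold change over all genes was 0.003. Each list is described by its counts and its median beside these, without a test of the list. The lists were chosen with earlier results of these data known, so their shares of calls are no independent support. Over all genes tested, every KO library lay above every control in 10.1% and below every control in 10.2%. For a called gene this separation comes from the same contrast and adds no support.

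The end joining factors, which hold, trim and ligate the ends that RAG leaves, went both ways. Of 16 genes, all tested, 2 rose, 4 fell and 10 did not pass (37.5% called), with a median log2 fold change of -0.002. ATM, the kinase that responds to the breaks, rose by 0.42 (SE 0.0484) from 161 ± 5.9 to 215 ± 10.6 CPM, with an edgeR adjusted p of 2.65e-05. LIG4, the ligase that seals the ends, rose by 0.48 (SE 0.0846) from 20.6 ± 1.5 to 28.7 ± 2.66 CPM, with an edgeR adjusted p of 0.000941. For ATM and LIG4 all 6 KO libraries were above every control, as in 10.1% of all genes tested. XRCC6 and XRCC5 encode Ku70 and Ku80, which cap the ends. XRCC6 fell by 0.22 on the log2 scale (edgeR adjusted p 0.00131) from 509 ± 20.2 to 436 ± 14.5 CPM, and XRCC5 fell by 0.14 (0.0192 in edgeR) from 562 ± 4.47 to 511 ± 17.8 CPM, each below every control in all 6 KO libraries. H2AX, the histone phosphorylated around breaks, fell by 0.32 (edgeR adjusted p 0.0116), and XRCC4, the partner of LIG4, fell by 0.31 (0.0454 in edgeR), both with overlapping groups. DCLRE1C, the nuclease Artemis that opens the hairpins, had a log2 difference of 0.05, and PRKDC, the catalytic subunit of DNA-PK that activates it, one of -0.12, and neither passed. POLL and POLM, which with POLB are the polymerases of the family of TdT, had differences of -0.01 and 0.12, POLB had 0.01, and 0 of these 3 passed the edgeR threshold or had an unadjusted p under 0.05 between the guides.

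The balance of rises and falls depends on the setting. It was 3 higher and 1 lower with limma on log2(TPM + 1) and on log2(TPM + 0.1), and 4 higher and 3 lower without sgRNA_96 replicate 1. RAD50, of the complex that binds broken ends, had a log2 difference of 0.36 (edgeR adjusted p 0.103) and was called higher under 5 alternatives, with an adjusted p of 0.000794 in edgeR without a filter on counts, 0.033 and 0.0311 in these limma tests, and 0.0441 and 0.0466 in edgeR without sgRNA_96 replicate 1 or sgRNA_97 replicate 4. MRE11, of the same complex, was called higher without sgRNA_96 replicate 1 (0.0357 in edgeR). NBN, also of this complex, had a log2 difference of 0.0 (edgeR adjusted p 0.992) and was called under 0 of 16 alternatives. PRKDC was called lower with DESeq2 (adjusted p 0.0426) and in edgeR without sgRNA_96 replicate 4 (0.0398) or sgRNA_97 replicate 1 (0.0389). Other calls were lost without single libraries. Without SCR1 replicate 4 the list had 3 calls, with edgeR adjusted p of 0.0607 for XRCC5, 0.189 for XRCC4 and 0.0974 for H2AX. XRCC5 also lost its call without SCR1 replicate 1 (0.0755), SCR1 replicate 3 (0.0511) or sgRNA_96 replicate 3 (0.0518), by the same edgeR test. XRCC4 lost it without SCR1 replicate 3 (0.141), sgRNA_96 replicate 1 (0.0614), 3 (0.0639) or 4 (0.0807), or sgRNA_97 replicate 4 (0.0757), again in edgeR. The calls of ATM and XRCC6 held under all 16 alternatives, and that of LIG4 under all but the limma test on log2(TPM + 1) without a filter (adjusted p 0.0957). Over all 16 the highest adjusted p was 0.234 for XRCC5, 0.222 for XRCC4 and 0.145 for H2AX, and the 3 limma settings on TPM ended all 3 calls.

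The genes reported to act with the RAG or TdT proteins were lower or not past the threshold. Of 11 genes, all tested, 0 rose, 8 fell and 3 did not pass (72.7% called, beside 10.6% of all genes called lower), with a median log2 fold change of -0.186. HMGB1 and HMGB2, the DNA-bending proteins that help RAG grip its sites, fell by 0.19 (edgeR adjusted p 0.000975) from 2028 ± 31.8 to 1782 ± 40.2 CPM and by 0.16 (0.0152 in edgeR) from 1116 ± 21.6 to 999 ± 50.4 CPM. CDK2 and CCNA2, the kinase and cyclin that mark RAG2 for degradation, fell by 0.33 (edgeR adjusted p 5.68e-05) from 145 ± 2.48 to 115 ± 3.83 CPM and by 0.29 (0.0005 in edgeR) from 162 ± 5.41 to 132 ± 6.63 CPM. SKP2, the ubiquitin ligase subunit that acts next on RAG2, fell by 0.13 (edgeR adjusted p 0.041). PCNA, the sliding clamp that binds TdT, fell by 0.32 (edgeR adjusted p 4.82e-05) from 372 ± 7.92 to 297 ± 10.5 CPM. DNTTIP1, a TdT-binding protein, fell by 0.22 (edgeR adjusted p 0.0257), and KPNA2, an importin that binds RAG1, fell by 0.20 (0.00953 in edgeR). All 6 KO libraries were below every control for each of these 8 genes except KPNA2, as in 10.2% of all genes tested. CDK2, CCNA2, SKP2 and PCNA are best known from the cell cycle and DNA replication in all dividing cells. The study reports that E2F and MYC target genes went down with this enhancer knockout. Whether the falls listed here are part of that was not tested. DCAF1, KPNA1 and DNTTIP2 had log2 differences of -0.04, 0.02 and -0.08.

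Among these 8 falls, those of HMGB1, CCNA2 and PCNA passed under all 16 alternatives. Without SCR1 replicate 1 the list had 5 calls, and edgeR adjusted p was 0.0768 for HMGB2, 0.149 for SKP2 and 0.139 for DNTTIP1. Without SCR1 replicate 4 it had 4, with 0.0552, 0.098 and 0.0683 for the same genes and 0.068 for KPNA2 in edgeR. SKP2 also lost its call without SCR1 replicate 3 (0.0848) and without 3 of the KO libraries, sgRNA_96 replicate 3 (0.0955), sgRNA_96 replicate 4 (0.0534) and sgRNA_97 replicate 4 (0.0794), and DNTTIP1 without sgRNA_97 replicate 3 (0.0541), all in edgeR. The 3 limma settings on TPM ended the calls of HMGB2, KPNA2, SKP2 and DNTTIP1, with an adjusted p over all alternatives of up to 0.177, 0.153, 0.486 and 0.139, and without a filter limma also ended that of CDK2 (0.0722). Reads that HMGB1, HMGB2 or PCNA share with any processed copies in the genome could be divided among them, which was not examined.

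Factors with a reported part in RAG transcription moved in both directions. Of 24 listed genes 23 were tested, GFI1B being too low, and 8 rose, 5 fell and 10 did not pass (56.5% called), with a median log2 fold change of 0.016. IKZF3, which encodes Aiolos, rose most, by 0.89 (SE 0.118) from 6.19 ± 0.546 to 11.4 ± 1.19 CPM, with an edgeR adjusted p of 9.07e-05. FOXO1, an activator of RAG transcription in B cell precursors, rose by 0.37 (SE 0.0533) from 151 ± 6.36 to 195 ± 11.9 CPM, with an edgeR adjusted p of 0.000157. TCF4, an E protein related to TCF3, rose by 0.39 (edgeR adjusted p 1.39e-05) from 374 ± 11.2 to 489 ± 19.3 CPM. BCL11A rose by 0.39 (edgeR adjusted p 0.000277) and ERG by 0.34 (4.78e-05 in edgeR), both transcription factors of blood cell precursors. ZNF608, the human counterpart of a mouse repressor of Rag genes, rose by 0.31 (edgeR adjusted p 0.00055), SATB1, a chromatin organiser, by 0.26 (0.000933 in edgeR) and FOXO3 by 0.23 (0.0195 in edgeR). In all 8 genes each of the 6 KO libraries exceeded every control, as in 10.1% of all genes tested. RUNX1 fell by 0.37 (edgeR adjusted p 0.000196) from 182 ± 6.94 to 141 ± 9.46 CPM, ETS1 by 0.27 (0.0124 in edgeR) and TCF3 by 0.24 (0.00986 in edgeR), the last with overlapping groups. TCF3 reads can come from the normal gene and from the TCF3::HLF fusion. IKZF1, which encodes Ikaros, fell by 0.19 (edgeR adjusted p 0.00903) and MYB by 0.16 (0.0187 in edgeR). EBF1 and PAX5, which hold the B cell programme, had log2 differences of -0.09 and -0.02 and did not pass.

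The calls of FOXO1, RUNX1, ERG and ZNF608 held under all 16 alternatives, and CEBPA, at a log2 difference of -0.32, was called lower only without sgRNA_96 replicate 4 (edgeR adjusted p 0.0332). FOXO3 lost its call without SCR1 replicate 1 (edgeR adjusted p 0.144) or 4 (0.0739), IKZF1 without SCR1 replicate 1 (0.0566), MYB without SCR1 replicate 1 (0.0933) or 3 (0.0914), ETS1 without SCR1 replicate 3 (0.0746) and TCF3 without SCR1 replicate 4 (0.0721), in the same test. The limma test on log2(TPM + 1) without a filter ended the calls of IKZF3, TCF4, SATB1 and IKZF1 (adjusted p 0.0651, 0.0691, 0.0547 and 0.067), and BCL11A lost its call under each of the 3 limma settings, with an adjusted p of up to 0.246. The same 3 settings ended the calls of FOXO3, TCF3, ETS1 and MYB, with an adjusted p over all alternatives of up to 0.293, 0.396, 0.246 and 0.128.

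Genes of the B cell precursor stage, in which RAG and TdT are normally made, rose or did not pass in the edgeR test, although IGLL1 and CD38 fell under some of the alternatives below. Of 16 genes, all tested, 6 rose, 0 fell and 10 did not pass (37.5% called), with a median log2 fold change of 0.086. MME, which encodes CD10, rose by 0.50 (SE 0.0454) from 469 ± 14.2 to 661 ± 31.9 CPM, with an edgeR adjusted p of 2.45e-06. SOCS2, an inhibitor of cytokine signalling, rose by 0.47 (SE 0.0425) from 337 ± 16.1 to 466 ± 14.3 CPM, with an edgeR adjusted p of 2.39e-06. BLNK, an adaptor of the pre-B cell receptor, rose by 0.34 (edgeR adjusted p 0.000294), VPREB3 by 0.29 (0.00744 in edgeR) and the tetraspanin CD9 by 0.14 (0.0221 in edgeR). CD34, a stem and progenitor antigen, was called higher with an edgeR adjusted p of 0.00125. At 0.034 to 0.0945 CPM in SCR1 and 0.368 to 0.772 CPM in KO it was close to absent from all 9 libraries. It passed the count filter only through KO libraries, so its call and its separation from the controls are no support. Only 12 of the 16 alternatives gave CD34 an adjusted p, and the limma test on log2(TPM + 1) did not call it (adjusted p 0.0898). In all 6 genes, CD34 among them, every KO library was above every control, as in 10.1% of all genes tested. The surrogate light chain genes IGLL1 and VPREB1 had log2 differences of -0.18 and 0.15, and IGHM and IL7R had 0.03 and 0.01, none past the threshold. IGLL1 was called lower with DESeq2 (adjusted p 0.0286), in edgeR without a filter on counts (0.00181) and without sgRNA_96 replicate 1 (0.0156), and VPREB1 higher with DESeq2 (0.0435) and in edgeR without sgRNA_96 replicate 4 (0.0213). CD38 was called lower in edgeR without a filter (0.0382) and with a replicate block (0.0418). The call of CD9 was lost without SCR1 replicate 3 (edgeR adjusted p 0.13) or 4 (0.0602) and when no filter on low values was used, and that of VPREB3 in the limma test without a filter (0.0857).

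Of the genes called in these lists, 3 of 6 for end joining, 5 of 8 for the RAG and TdT partners, 8 of 13 for the transcription factors and 4 of 6 for the B precursor genes were also called with each guide alone against SCR1, in the same direction. Over all 2984 genes called, 1293 (43.3%) were. With single guides 11.2% of all genes tested were called for sgRNA_96 and 15.1% for sgRNA_97. The guides share the control libraries in these counts. The B precursor count includes CD34, which passed the count filter only through KO libraries. Between the guides themselves edgeR called 0 genes of any of the 4 lists, and at an unadjusted p under 0.05 there were 0, 1, 1 and 0.

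**Figure D5:**
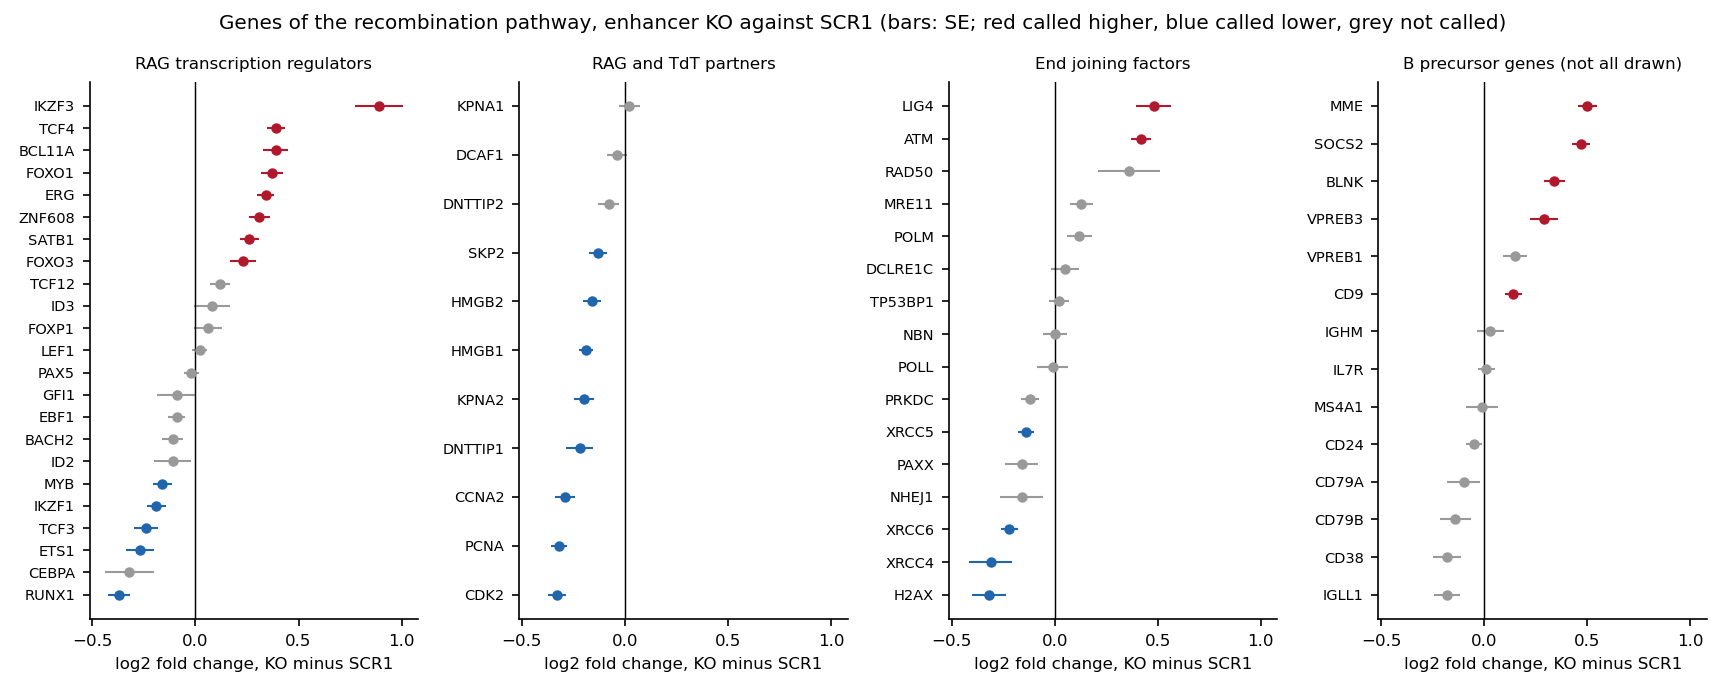
Log2 fold change of KO against SCR1 (x axis, bars are SE) for genes of the 4 lists (y axis), with genes past the edgeR threshold in red where higher and blue where lower, and the others in grey. CD34, at under 1 CPM, is left out. The partners lie at or left of 0 apart from KPNA1, and IKZF3 lies farthest to the right, at 0.89.

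Genes around the loci were also followed, out to 500000 bases from each gene body. Around the RAG genes COMMD9 fell by 0.28 (edgeR adjusted p 0.00402) from 40.9 ± 1.75 to 33.8 ± 1.8 CPM, while PRR5L at -0.24 and TRAF6 at 0.05, which begins 100 bases from the upstream end of the RAG1 model, did not pass (edgeR adjusted p 0.179 and 0.651). The remaining neighbours there were too low to be tested, IFTAP among them. Of 12 genes tested around DNTT 3 were called, all higher, beside 20.7% called and 10.1% called higher over all genes. BLNK, 32822 bases away, rose by 0.34 as given above, ENTPD1-AS1 by 0.24 (edgeR adjusted p 0.000377) and ZNF518A by 0.25 (0.0228 in edgeR). The call of ZNF518A was lost without SCR1 replicate 1 (edgeR adjusted p 0.174) or 3 (0.0598), and that of COMMD9 in the limma test without a filter (0.112).

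Finally, genes were ranked by how closely their 9 values followed each gene, as the root mean square difference of log2 CPM after subtracting each gene's SCR1 mean, over 12961 genes with a mean of at least 1 CPM. The measure is a description over libraries that share the same contrast. Closest to RAG1 were HLA-DMB at 0.0829, FBXW7 at 0.0844, H2BC21 at 0.0904, FHIT at 0.0955 and IKZF3 at 0.106. HLA-DMB is a chaperone of antigen presentation, FBXW7 a ubiquitin ligase subunit and H2BC21 a histone gene. Closest to RAG2 were TTC17 at 0.0242 and then DNTT at 0.0335, followed by CLK1, ZKSCAN1 and MED4. Closest to DNTT were TTC17 at 0.0303, FHIP2A at 0.0324 and RAG2 at 0.0335, followed by ENTPD1-AS1 and PIK3CG. RAG2 and DNTT were thus among each other's 3 closest genes. From RAG1 they lay at 0.509 and 0.503, which made them its 1364th and 1289th closest of the 12961 genes. Seen from RAG2 and DNTT, RAG1 was only the 11911th and 11835th closest. The measure mostly restates the size of the KO difference, for which RAG1 was chosen, and is no further support for it.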

How the data were processed

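RNA-seq libraries of HAL-01 cells were prepared by the authors with a TruSeq mRNA kit. Reads were trimmed with TrimGalore, aligned to hg38 with STAR and quantified with Salmon 1.10.1 in an nf-core workflow, per the methods of the study. The authors deposited estimated counts per transcript, without normalization, and TPM per transcript. The annotation release was not given in the sources used here, and all 252835 transcript identifiers matched GENCODE release 44. Of the counts above 0, 87.8% were not whole, since Salmon shares reads among transcripts.

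Here counts were added up over the transcripts of a gene and rounded, genes were kept by filterByExpr (minimum count 10), and libraries were scaled by TMM. CPM uses the scaled sizes. Tests were run in R 4.3.3 with the quasi-likelihood method of edgeR 4.0.16, p-values were adjusted by Benjamini-Hochberg for 14436 genes, and the threshold was 0.05. A fit with 6 KO against 3 SCR1 libraries had a biological coefficient of variation of 0.0724. A second fit with a term per guide gave the guide contrasts. Groups came from the sample titles. Alternatives were DESeq2 1.42.0, the test that the methods name, other scaling (RLE), no filter, a replicate block, limma 3.58.1 on log2(TPM + 1) and log2(TPM + 0.1), and each library left out. On simulated counts the test called 81.6% of 190 genes changed 2-fold, none in the wrong direction. Of its 171 calls 16 were false, a larger share than the threshold of 0.05. Only 2-fold changes were simulated, so the share found among smaller changes, as most of those called in the lists are, was not examined. Replicates of a group differed beyond counting noise. The promoter windows of RefSeq gave the motif background. Named genes were the listed genes past the threshold, up to 8 a list, the tested genes within 500000 bases, and the 5 genes closest to each member in profile. The 3 genes and the lists were chosen with earlier results of these data known. Depth limits low genes: CPM values under 1 rest on few counts. The upstream sequence of RAG1 and the values of 1 listed gene are not reported here.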

Additional observations from a re-analysis of the deposited data

Results flagged for a closer look

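In a few genes 1 of the 6 KO libraries stood far from the other 5, with a gap over the range above the limit of 0.625 set for 6 values. This was checked for 37 genes, and chance alone would give about 1 in 20, or 1.85. RAG1 was at 442 CPM in sgRNA_96 replicate 1, against 503 to 528 CPM in the other KO libraries. DNTT was at 2279 CPM in the same library, against 2456 to 2560 CPM. MEF2C was at 553 CPM in sgRNA_97 replicate 1, against 495 to 510.1 CPM. SATB1 was at 85.7 CPM in sgRNA_96 replicate 3, against 91.8 to 95.1 CPM.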

How the results depend on the processing

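Over 16 alternatives the log2 fold change of KO against SCR1 ran from 0.81 to 0.91 for RAG1, from 0.23 to 0.27 for RAG2 and from 0.24 to 0.28 for DNTT, leave-outs included, and no direction reversed. The differences between the guides ran from 0.02 to 0.12, 0.02 to 0.10 and 0.02 to 0.09, with adjusted p of 0.936 to 1.0. Counts of calls moved more, and the causes were not tested. With limma on log2(TPM + 1), log2(TPM + 0.1) and log2(TPM + 1) without a filter, the genes called for KO against SCR1 were 1240, 1246 and 648 in place of 2984, for sgRNA_96 448, 451 and 201 in place of 1615, and for sgRNA_97 706, 706 and 311 in place of 2181. The partners went from 8 to 4, 4 and 3 and the transcription factors from 13 to 8, 8 and 4, and end joining went from 6 to 2 without a filter. Between the guides, 3 genes were called, and 8 with DESeq2, 106 without a filter on counts, and 0, 0 and 1 with the limma settings. With each library left out in turn, KO calls ran from 1503 (without SCR1 replicate 1) to 3547, and were 1813 without SCR1 replicate 4. For sgRNA_96 they ran from 760 (without sgRNA_96 replicate 3) to 2027, with 774 and 916 without SCR1 replicates 1 and 4. For sgRNA_97 they ran from 987 (without SCR1 replicate 1) to 2501, with 1243 and 1121 without SCR1 replicate 4 and sgRNA_97 replicate 3. Between the guides they ran from 1 to 5, for end joining from 3 to 7, for the partners from 4 to 8, for the transcription factors from 10 to 14 and for the B precursor genes from 5 to 7. No pairing by replicate number was seen: the deviations of 9 same-numbered pairs correlated at -0.066 to 0.055, and 1 library correlated best with its own number. Such correlations cannot show whether same-numbered libraries shared an infection or culture. With the replicate number as a block, 1 gene was called between the guides, SKP2 was no longer called in KO against SCR1 and CD38 was. In TPM of coding transcripts only, added after the data were seen, DNTT to RAG2 was 27.4 in SCR1 and 27.7 in KO. Genes under 1 CPM, such as CD34, are limited by depth.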
